A study of Homo sapiens with 6 samples.

Results

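A set of 126 protein-coding genes had lower mRNA levels in siPrp19 cells than in control cells in each of 3 replicate pairs. The members were chosen by the siPrp19 minus NC difference itself, so their lower levels are described here and not tested. A member had a mean FPKM (fragments per kilobase of exon, scaled to the mapped fragments of each sample, so a level per length) of at least 5 over the 6 samples. Its log2(FPKM + 0.1) was lower by at least 0.2 in every pair and by at least 0.3 on the mean of the pairs. Of 7317 protein-coding genes of GENCODE 29 at that level, 137 passed these cuts, or 1.87%. PRPF19 and 10 more of them were left out by name, which left the 126 genes, and the 12th name on that list did not pass the cuts. The mirror rule for rising genes found 45 genes, or 0.615%.

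The human neuroblastoma line SK-N-BE(2) carries amplified MYCN. Its cells were grown in MEM/F12 medium with fetal bovine serum and transfected either with negative control siRNA (siNC, the NC group) or with siRNA against PRPF19 (siPrp19). RNA of 3 NC and 3 siPrp19 samples was sequenced, and GEO's labels number them as replicates 1 to 3 in both groups and place them 72 h after transfection, while the methods state a shorter time. The sequencing asked which genes change when Prp19 is lowered. Both groups are 1 cell line treated with siRNA only, and the methods call the samples biological replicates. In bulk RNA, fewer cells that express a gene and less RNA per cell cannot be told apart.

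Prp19, the protein of PRPF19, is a ubiquitin ligase at the core of the PRP19 complex, which joins the spliceosome when it is activated and is also used in DNA repair. Neuroblastoma arises from the sympathoadrenal lineage, and its cell lines can hold an adrenergic state, led by factors such as HAND2 and GATA3, or a mesenchymal one, rich in matrix and adhesion genes.

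PRPF19 stood at 53.1, 53.1 and 64.9 FPKM in NC replicates 1 to 3 and at 21.8, 28.5 and 33.6 FPKM in the siPrp19 replicates. All siPrp19 samples lay below all NC samples, and the mean log2 difference was -1.04 ± 0.21 (SD, n = 3 pairs). The libraries held between 19058780 and 21943936 recovered reads on genes in NC and between 22273025 and 24181789 in siPrp19. Every siPrp19 library was thus deeper than every NC library, and the part of depth in the differences was not tested. The 10 adrenergic and chromaffin markers examined were all present, with MYCN between 801 and 1215 FPKM and GATA3 between 100.3 and 132 FPKM. Some varied widely over replicates, and DBH and TH were lowest in replicate 3 of both groups. DBH stood at 44.2 FPKM in NC replicate 1 but at 3.49 FPKM in NC replicate 3. In siPrp19 replicates 1 and 3 it stood at 41.9 and 3.94 FPKM. The pairs of blood and endothelial markers summed to at most 0.116 FPKM in any sample, with CD3E at 0. Of the epithelial markers KRT5 was at 0 and EPCAM stood between 1.34 and 1.78 FPKM in NC and between 1.79 and 2.48 FPKM in siPrp19. Of the fibroblast or mesenchymal markers, COL1A1 stood between 34.7 and 46.5 FPKM and PDGFRB between 27.5 and 32.9 FPKM, while PRRX1 stayed at or below 0.889 FPKM. Their summed level ran from 65.0 to 79.9 FPKM in NC and from 63.7 to 76.9 FPKM in siPrp19, and the part of these cell states in the members' differences was not tested.

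The methods give target sites of 2 siRNAs to PRPF19 and say that the first was taken for later assays, but the labels do not say which was used in the sequenced cells. The target of the first is shown, because its 3′ part sets which other mRNAs could pair with the same guide strand. It was read from the PRPF19 transcript, in coding exon 11 of 16, at chr11:60899259-60899277 on the minus strand (GRCh38, GENCODE 29). The 7 capitals are the letters opposite guide positions 2 to 8, counted from the guide's 5′ end. Below it stand the first matching stretches of the 3′UTRs of 4 members, FBXL7 (chr5:15939303-15939331, plus strand), FAM3C (chr7:121350001-121350029, minus strand), CADM1 (chr11:115175865-115175893, minus strand) and BMPR2 (chr2:202563503-202563531, plus strand).
PRPF19 target: gccactatcagGATTTGGt
FBXL7: tgaagtttcagGATTTGGgtgtcacaaag
FAM3C: aattaaaaagaGATTTGGctagttgtgtg
CADM1: gttgtcgtaaaGATTTGGgtgaacaaaca
BMPR2: cataccttaatGATTTGGgaagttaggca

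The heptamer GATTTGG occurred on the sense strand of the 3′UTR in 24 of 126 members, 31 times in all, or in 19.05% against 12.7% of the 7317 expressed genes. Members had longer 3′UTRs, and the share of matches in each class of 3′UTR length over all genes would give 21.83 members. The median mean difference was -0.38 in the members with a match and -0.40 in those without. The rule cut the members on this same difference, so these medians had little room to differ and nothing is read from them. Over all expressed genes the medians were -0.025 with a match and -0.0053 without, not adjusted for 3′UTR length. From the shortest to the longest class of 3′UTR, the medians with a match were 0.0282, -0.0014, 0.0032, -0.0133, -0.0302 and -0.0526. Those without a match were 0.0231, 0.0089, -0.0156, -0.0275, -0.0497 and -0.0577. Genes with a match thus had the lower median only in the class next to the shortest. Of the 20 lowest members 2, FBXL7 and FAM3C, held a match. The seed match CGCTTCA of the second siRNA was found in 3 members, or 2.38% against 2.19% of all. Which letters matched says nothing of whether a guide acted there.

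Most differences were small. The median member had a mean log2 difference of -0.39, with a range from -1.51 (AC004556.1) to -0.30 (LDHB), while the median of all 7317 genes was -0.0073. The medians of the members in pairs 1, 2 and 3 were -0.46, -0.36 and -0.36, against -0.036, -0.0039 and 0.012 for all genes. Pair 1 held the lowest difference of the 3 pairs in 80 of 126 members (63.5%), and in 43.1% of all 7317 genes. There were 26 members with a mean difference of -0.5 or lower and 12 that were at least 1.5-fold lower.

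**Figure D1:**
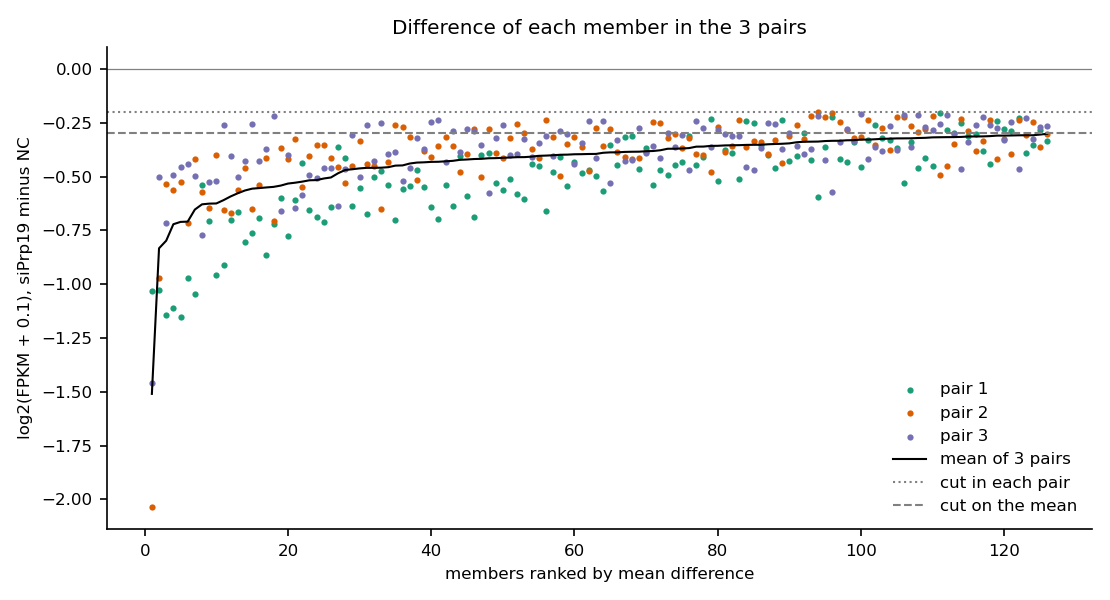
The log2 difference of siPrp19 minus NC (y axis, log2(FPKM + 0.1)) for the 126 members ranked by their mean (x axis), with a point for each of the 3 pairs and a line for their mean. All points lie at or below the cut of -0.2 that chose the members, and the first gene reaches -2.04 in pair 2. From about rank 30 on the mean rises slowly, from -0.46 to near the cut of -0.3 at the last ranks.

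The cut on the mean passed through a dense part of the distribution. Just inside it stood ZFP91 at -0.3082, NCOA7 at -0.305 and LDHB at -0.3013. Just outside stood GNB4 at -0.2986, TRAM2 at -0.2982 and B4GALT5 at -0.298. LDHB and GNB4, the nearest to the line on either side, thus differed in the third decimal.

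Replicates varied widely within the groups. All siPrp19 samples lay below all NC samples in 48 of the 126 members (38.1%), against 208 of all 7317 genes (2.84%), and nothing is read from this because the members were chosen on the same values. In 70 members (55.6%) the range within NC was larger than the mean difference, against 92.7% of all genes, whose differences were mostly near 0. The order of the 3 replicates was the same in NC and siPrp19 in 82 members (65.1%, against 63.7% of all genes). Replicate 2 was highest in both groups in 49 members (38.9%, against 38.5% of all genes), replicate 3 in 52 (41.3% against 34.4%) and replicate 1 in 9 (7.14% against 8.31%), so the orders were close to those of all genes. Most members were expressed at moderate levels, 57 at 5 to under 10 FPKM, 56 at 10 to under 30, 12 at 30 to under 100 and LDHB alone above 100, with a median of 10.5 FPKM against 12.5 FPKM for all expressed genes.

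No gene was called between the groups by limma on log2(FPKM + 0.1) without pairing at an FDR of 0.05, 0 of 14432 genes tested (0%). So 0 of 126 members were called, and PRPF19 was not called either. In that fit 225 genes had an unadjusted p under 0.05, 137 in the falling direction. This is fewer than the threshold would give with no differences at all. With a replicate block 2263 genes reached it, 1266 of them falling. A fit with a replicate block called 0 genes on that table and 135 of 7906 (1.71%) when only genes from 5 FPKM on were kept, 76 of them members. On reads recovered from the FPKM values, limma-voom called 0 genes without the block and 1127 (7.81%) with it, among them 124 members. These counts use the contrast that chose the members, so they are no evidence on them.

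For genes chosen on the other pairs only, the pair left out gives a measurement the cuts did not fix. The sets chosen in this way are not the members, whose choice used every pair. The shares below describe those sets and are no evidence on the members. Genes that passed the same cuts in pairs 2 and 3 numbered 115, and 107 of them (93.0%) were lower by at least 0.2 in pair 1 also, against 17.5% of all expressed genes. For 206 genes chosen on pairs 1 and 3, 132 (64.1%) were that much lower in pair 2, against 9.62%. For 262 genes chosen on pairs 1 and 2, 134 (51.1%) did so in pair 3, against 9.24%. The median difference in the pair left out was -0.45 for pair 1, -0.25 for pair 2 and -0.21 for pair 3. Over all expressed genes the medians of these pairs were -0.036, -0.0039 and 0.012. The level floor of 5 FPKM used all samples throughout.

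**Figure D2:**
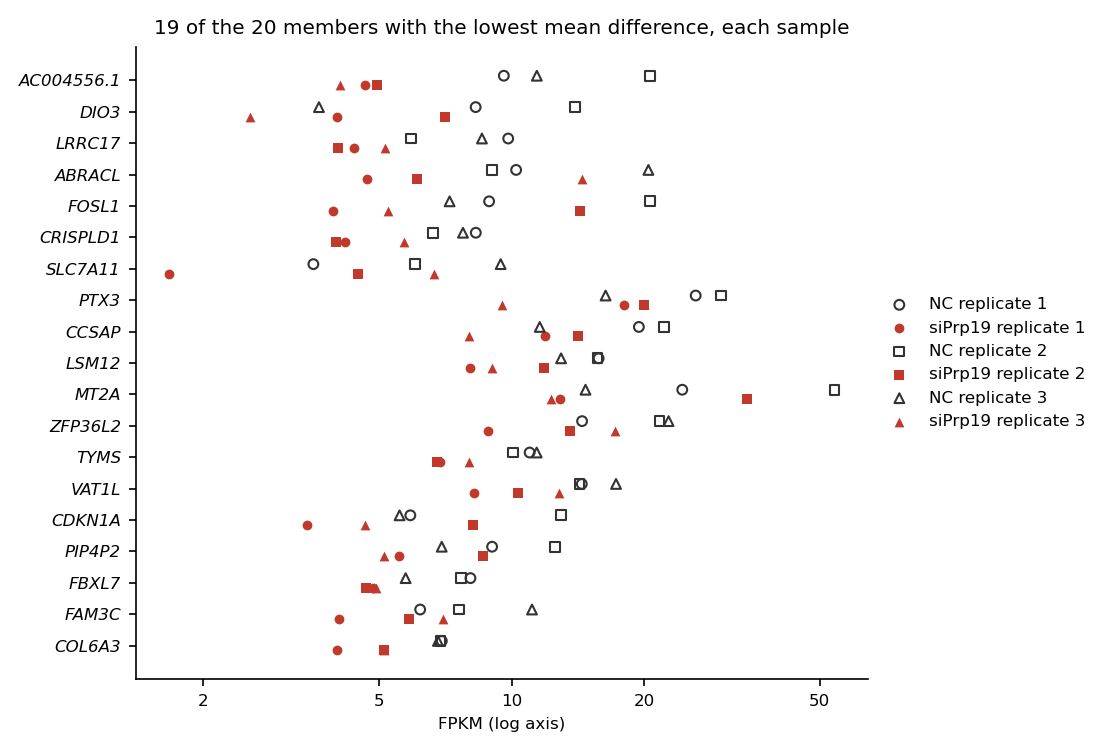
FPKM on a log axis (x axis) in each of the 3 NC (open) and 3 siPrp19 (filled) samples for 19 of the 20 members with the lowest mean difference (rows), with a marker shape for each replicate number. The groups are apart in AC004556.1, LRRC17, CRISPLD1, LSM12, TYMS, VAT1L, FBXL7 and COL6A3, and in MT2A the replicates are spread from 12.3 to 54.0 FPKM while each siPrp19 sample lies left of its own NC partner.

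Secreted and matrix proteins formed 15 members, with a median difference of -0.43. LRRC17 (ENSG00000128606, chr7:102912991-102944949), a secreted leucine-rich repeat protein, stood at 9.82, 5.90 and 8.56 FPKM in NC and 4.39, 4.05 and 5.17 FPKM in siPrp19. All its siPrp19 samples were lower than all NC samples, and their mean was 56.0% of the NC mean (log2 difference -0.80 ± 0.31, SD, n = 3). CRISPLD1, a cysteine-rich secretory protein, went from 8.30, 6.62 and 7.76 FPKM to 4.19, 3.99 and 5.69 FPKM, a difference of -0.71 ± 0.26 without overlap. COL6A3, which encodes a chain of collagen VI, was nearly level in NC at 6.94, 6.90 and 6.81 FPKM and stood at 4.01, 5.13 and 5.13 FPKM in siPrp19.

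Other secreted members varied widely over replicates. PTX3, a pentraxin of innate immunity, went from 26.2, 29.8 and 16.3 FPKM to 17.9, 20.01 and 9.52 FPKM, and replicate 3 was the lowest of both groups. FN1, fibronectin, had the same order, at 53.1, 67.9 and 28.6 FPKM in NC and 39.4, 54.6 and 23.3 FPKM in siPrp19 (-0.35 ± 0.07).

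The matrix protein TGFBI followed that order at lower levels, with 32.9, 42.3 and 23.2 FPKM in NC and 21.8, 32.1 and 19.1 FPKM in siPrp19. IGFBP3, which binds insulin-like growth factors, was instead highest in replicate 3, at 64.2, 78.0 and 94.4 FPKM in NC and 46.0, 62.6 and 71.3 FPKM in siPrp19 (-0.40 ± 0.08). IGFBP7 differed by -0.41, FAM3C, a cytokine-like secreted protein, by -0.54 and the metalloprotease ADAMTS19 by -0.31. Also in this group were MMP1, the interstitial collagenase (-0.43), HAS2, which makes hyaluronan (-0.39), the peptide hormone gene SCT (-0.36) and FIBIN (-0.46). SCT rested on only 33 to 64 reads per sample, and its groups overlapped. Of 33 expressed genes for collagens, laminins and other matrix proteins, 25 (75.8%, against 52.3% of all 7317 genes) had a mean difference below 0, 4 (12.1% against 1.87%) passed the cuts, THBS1, left out by name, among them, and the median was -0.098 against -0.0073. The family was defined by symbol with results known, and its difference from other genes was not tested.

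Signalling genes had the median closest to the cut, -0.33 over 10 members. IL13RA2, a decoy receptor for interleukin-13, was the highest of them at 81.9, 78.6 and 82.3 FPKM in NC and 56.7, 67.3 and 71.0 FPKM in siPrp19. The NC samples were close to each other and none overlapped with siPrp19 (-0.32 ± 0.18). BMPR2, a receptor for bone morphogenetic proteins, stood at 12.9, 14.8 and 14.0 FPKM against 9.97, 12.6 and 10.8 FPKM (-0.32). The kinase NUAK1 differed by -0.46, the Ras-related GTPase GEM by -0.40, the Ras pathway inhibitor SPRED1 by -0.37, the adaptor GAB1 by -0.33 and protein kinase C alpha, PRKCA, by -0.32.

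Among 7 genes of excitable membranes, CHRNA3, a subunit of the ganglionic nicotinic acetylcholine receptor, was present at 24.0, 21.7 and 18.7 FPKM in NC and 17.3, 15.6 and 15.8 FPKM in siPrp19. The groups were apart (-0.40 ± 0.13). SYT1, the calcium sensor of synaptic vesicles, went from 28.5, 33.0 and 22.7 FPKM to 22.7, 25.4 and 18.9 FPKM and overlapped between groups. The potassium channel KCNK1 differed by -0.40, CACNG4, an auxiliary calcium channel subunit, by -0.35, ADAM23 by -0.43, and the Popeye domain genes BVES and POPDC2, whose proteins bind cyclic AMP, by -0.38 each. CHRNA3, KCNK1 and CACNG4 were 3 of 38 expressed ion channel subunit genes (7.89%, against 1.87% of all genes past the cuts), and the median of the 38 was 0.028.

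Of 15 transcription factors and chromatin genes, FOSL1, an AP-1 subunit, differed most (ENSG00000175592, chr11:65892049-65900573), at 8.89, 20.6 and 7.23 FPKM in NC and 3.94, 14.3 and 5.25 FPKM in siPrp19. Replicate 2 stood far above the others in both groups, and siPrp19 replicate 2 lay above NC replicates 1 and 3 (-0.71 ± 0.39). FOS, another AP-1 subunit, was also highest in replicate 2 of both groups. It stood at 5.69, 12.5 and 4.43 FPKM in NC and 3.94, 10.4 and 3.62 FPKM in siPrp19 (-0.36 ± 0.14). RBPJ, the DNA-binding factor of Notch signalling, was likewise highest in replicate 2 of both groups, at 47.7 FPKM in NC and 39.6 FPKM in siPrp19 (-0.45).

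CBFB, the partner of RUNX factors, went from 40.4, 50.7 and 57.0 FPKM to 29.6, 38.5 and 48.2 FPKM, and its groups overlapped. The factor of epithelial-mesenchymal transition SNAI2 differed by -0.32, the E-box factor TCF4 by -0.32, the TEAD cofactor VGLL4 by -0.43, the MYC-interacting CDCA7L by -0.52 and the histone chaperone ASF1A by -0.35.

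The promoters below, from RefSeq (GRCh38.p14), run from 250 bases before to 50 after the gene start. They belong to some of the members that were highest in replicate 2 and lowest in replicate 3 of both groups, and each holds a marked site. The members shown are FOS (chr14:75278578-75278877, plus strand), MT2A (chr16:56608334-56608633, plus strand) and FN1 (chr2:215436019-215436318, minus strand). Capitals mark, on either strand, the AP-1 site TGANTCA, the core TGACGT of the cyclic AMP response element, and the TATA box TATAAA. Matches on the opposite strands may overlap. PTX3 had the same order over replicates, but none of these sites in its promoter.
FOS: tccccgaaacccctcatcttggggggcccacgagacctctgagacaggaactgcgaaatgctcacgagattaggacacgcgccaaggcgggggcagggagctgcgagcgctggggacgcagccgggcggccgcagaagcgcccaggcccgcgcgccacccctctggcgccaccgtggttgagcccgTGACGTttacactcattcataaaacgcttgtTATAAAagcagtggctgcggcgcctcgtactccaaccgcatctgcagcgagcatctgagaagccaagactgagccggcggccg
MT2A: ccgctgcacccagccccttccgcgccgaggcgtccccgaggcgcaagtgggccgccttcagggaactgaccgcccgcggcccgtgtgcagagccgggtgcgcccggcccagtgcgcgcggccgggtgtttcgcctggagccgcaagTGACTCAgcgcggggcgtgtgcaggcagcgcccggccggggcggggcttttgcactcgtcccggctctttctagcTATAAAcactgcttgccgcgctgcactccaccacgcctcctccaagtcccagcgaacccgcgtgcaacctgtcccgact
FN1: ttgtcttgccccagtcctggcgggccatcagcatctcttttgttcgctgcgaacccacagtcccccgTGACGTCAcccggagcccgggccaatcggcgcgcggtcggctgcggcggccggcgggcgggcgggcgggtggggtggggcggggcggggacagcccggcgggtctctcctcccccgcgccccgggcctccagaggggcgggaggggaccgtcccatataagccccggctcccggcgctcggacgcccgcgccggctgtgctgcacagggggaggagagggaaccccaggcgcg

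Promoters were matched for 86 members and 5910 expressed genes. TGANTCA was found in 3 members (3.49%, against 3.50% of the expressed genes and 7.71% of all 35116 promoters). TGACGT stood in 9 members (10.5%, against 13.3% and 7.98%). TATAAA stood in 5 members (5.81%, against 4.84% and 11.5%). The shares of the members thus lay near those of other expressed genes, and a match is a description of letters and not a binding site.

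RNA-binding and RNA-processing proteins gave 7 members. LSM12, an Sm-like domain protein, went from 15.8, 15.7 and 12.9 FPKM to 8.06, 11.9 and 9.01 FPKM without overlap (-0.62 ± 0.29), and 22.1% of its 50-base stretches also occur in the pseudogene LSM12P1, so reads could be split between them. ZFP36L2, a CCCH zinc finger protein that binds AU-rich elements and speeds mRNA decay, stood at 14.5, 21.7 and 22.7 FPKM in NC and 8.84, 13.6 and 17.1 FPKM in siPrp19. Its siPrp19 replicate 3 lay above NC replicate 1 (-0.59 ± 0.16). PNO1 and RRP1B, of ribosome assembly, differed by -0.42 and -0.33, the deadenylation regulator TOB2 by -0.38 and the pseudouridine synthase TRUB1 by -0.35.

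DNA synthesis, repair and mitosis gave 7 members. TYMS, thymidylate synthase, stood at 10.99, 10.1 and 11.4 FPKM in NC and 6.90, 6.78 and 8.01 FPKM in siPrp19, with every siPrp19 sample lower (-0.58 ± 0.08). A share of 46.6% of its exon bases overlaps ENOSF1 and TYMSOS, and without a stated strand setting reads of these genes cannot be told apart. ANLN, anillin of the cytokinetic ring, went from 14.9, 12.4 and 14.5 FPKM to 9.43, 9.38 and 10.3 FPKM (-0.52). CDKN1A, the cyclin-dependent kinase inhibitor p21, overlapped between groups, at 5.89, 12.9 and 5.57 FPKM in NC and 3.43, 8.18 and 4.65 FPKM in siPrp19. SPDL1, of the kinetochore, differed by -0.41 and the spindle protein CKAP2 by -0.34.

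Cytoskeleton, motor and adhesion genes numbered 15. ABRACL differed most, from 10.2, 9.04 and 20.4 FPKM in NC to 4.69, 6.09 and 14.5 FPKM in siPrp19, with replicate 3 highest in both groups (-0.72 ± 0.34). CCSAP, a protein of centrioles and the spindle, went from 19.4, 22.2 and 11.6 FPKM to 11.9, 14.1 and 8.01 FPKM (-0.63 ± 0.09). TMSB4X, which binds actin monomers, was among the most highly expressed members at 83.1, 72.4 and 103 FPKM in NC and 53.3, 52.9 and 82.8 FPKM in siPrp19. In all 3 of these genes a siPrp19 sample lay above an NC sample of another number.

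MTPN, which inhibits actin capping, stood at 73.0, 83.9 and 92.7 FPKM in NC and 54.1, 67.3 and 68.2 FPKM in siPrp19, with every siPrp19 sample lower (-0.40 ± 0.07). The neuronal kinesin KIF5C went from 28.8, 26.1 and 30.8 FPKM to 19.7, 21.0 and 22.4 FPKM and the non-muscle myosin MYH10 from 33.1, 26.8 and 31.2 FPKM to 23.5, 21.4 and 25.4 FPKM. Neither overlapped (-0.44 and -0.37), and they were 2 of 48 expressed kinesin, dynein and myosin genes (4.17%, against 1.87% of all), whose median was -0.048. DPYSL3, of growth cones, was level within groups at 37.4, 37.3 and 37.4 FPKM in NC and 29.5, 31.0 and 29.1 FPKM in siPrp19 (-0.32). The adhesion molecule CADM1, a match of which is printed above, differed by -0.38.

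The largest group, 20 genes of the endoplasmic reticulum (ER), Golgi and vesicle traffic, had a median of -0.35. CALU, a calcium-binding protein of the secretory pathway, stood at 54.8, 63.1 and 69.1 FPKM in NC and 40.2, 51.2 and 53.7 FPKM in siPrp19, without overlap. RPN1, a subunit of the oligosaccharyltransferase, went from 43.2, 44.9 and 51.8 FPKM to 31.4, 36.6 and 44.7 FPKM and overlapped (-0.32). TMBIM6, an ER membrane protein that curbs cell death, stood at 43.5, 56.1 and 41.8 FPKM against 28.0, 43.8 and 34.2 FPKM (-0.43). The cargo receptor LMAN1 differed by -0.46, the glycosyltransferase B3GALNT1 by -0.51, UXS1, which makes UDP-xylose, by -0.43, the vesicle SNARE VAMP7 by -0.41, the COPII coat subunit SEC24A by -0.31, the signal peptidase subunit SPCS3 by -0.32 and the palmitoyltransferases ZDHHC2 and ZDHHC20 by -0.32 and -0.35.

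Metabolic, transport and mitochondrial genes numbered 12. DIO3, the deiodinase that inactivates thyroid hormone, had the second-lowest difference of the set (ENSG00000197406, chr14:101561351-101563452), at 8.29, 13.9 and 3.66 FPKM in NC and 4.02, 7.05 and 2.55 FPKM in siPrp19. Its NC samples spanned a wider range than its difference, and the groups overlapped (-0.83 ± 0.29). SLC7A11, the cystine transporter, went from 3.55, 6.03 and 9.45 FPKM to 1.67, 4.48 and 6.67 FPKM (-0.65 ± 0.34), and the metal-binding MT2A from 24.4, 54.0 and 14.7 FPKM to 12.9, 34.2 and 12.3 FPKM (-0.61 ± 0.33). Both overlapped.

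LDHB, the heart-type subunit of lactate dehydrogenase, was the most highly expressed member and had the smallest difference, at 314, 303 and 329 FPKM in NC and 249, 246 and 274 FPKM in siPrp19. Each siPrp19 sample lay below each NC sample (-0.30 ± 0.04), but 58.5% of its 50-base stretches occur in other annotated genes too, AC010197.2 and LDHBP2. ADSS, of purine synthesis, was even between pairs, from 22.4, 21.7 and 22.6 FPKM to 17.6, 17.4 and 17.9 FPKM (-0.33 ± 0.01). NT5E, which makes adenosine outside the cell, differed by -0.47, the fatty acid activating enzyme ACSL3 by -0.46, MAT2B, a regulator of S-adenosylmethionine synthesis, by -0.42, the mitochondrial carrier SLC25A24 by -0.39 and the ATP synthase assembly factor ATPAF1 by -0.39. Solute carriers as a whole had a median of -0.0076 over 104 expressed genes.

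The last groups were 5 ubiquitin ligase adaptors and autophagy genes and 13 genes of other or little known function. FBXL7, an F-box protein, went from 8.07, 7.69 and 5.75 FPKM to 4.86, 4.68 and 4.92 FPKM without overlap (-0.55 ± 0.28). KCTD10 differed by -0.50 and RB1CC1, which starts autophagosomes, by -0.37. TMEM123 stood at 75.4, 79.8 and 68.5 FPKM in NC and 56.9, 57.2 and 52.5 FPKM in siPrp19 and did not overlap (-0.42 ± 0.05). PRNP, the prion protein gene, differed by -0.39 and the nuclear import receptor KPNA4 by -0.33. AC004556.1 (ENSG00000276345), annotated on the scaffold KI270721.1 from 2585 to 11802, had the lowest difference of the set, from 9.60, 20.6 and 11.4 FPKM to 4.64, 4.94 and 4.09 FPKM (-1.51 ± 0.50). All its siPrp19 samples were lower, and it rested on 75 to 268 reads per sample. Whether its sequence recurs in other genes was not examined.

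**Figure D3:**
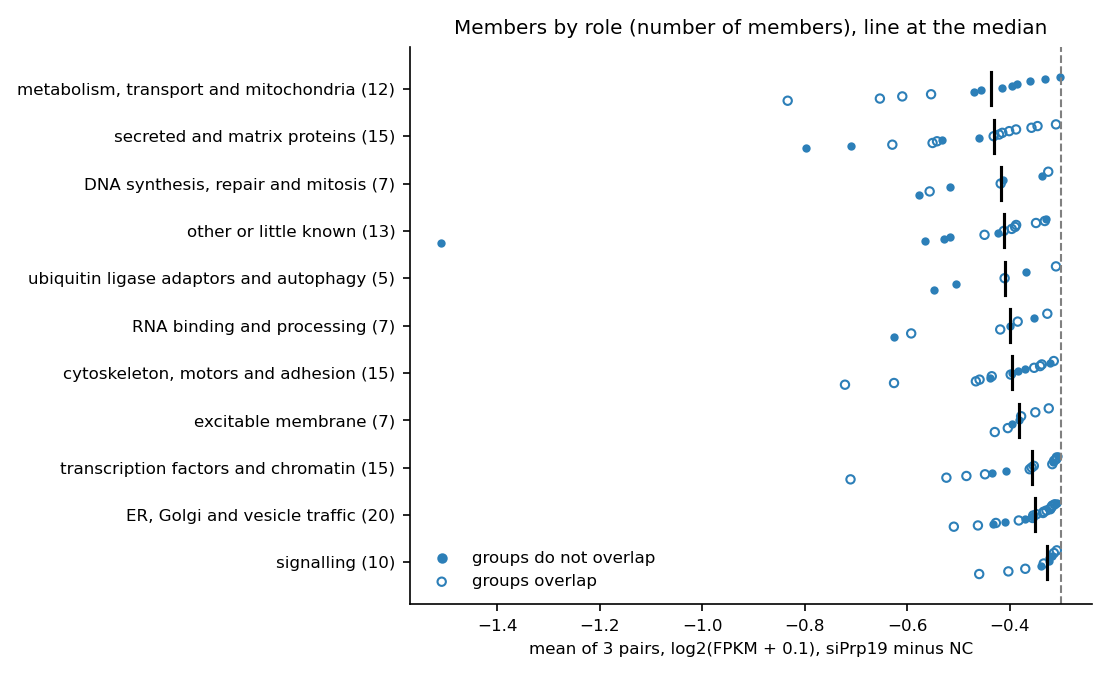
The mean log2 difference of siPrp19 minus NC (x axis, log2(FPKM + 0.1)) of each of the 126 members, in rows by role with the number of members, filled where no siPrp19 sample overlapped an NC sample and open where the groups overlapped, with a line at the median of each role. The medians run from -0.33 for signalling to -0.44 for metabolism, transport and mitochondria, and the cut of -0.3 is drawn as a dashed line.

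The members differed from other expressed genes in features of sequence that the rule did not use. Their 3′UTRs had a median of 1881 bases, against 1064 bases for all, and 92 of 125 members with a transcript sequence lay above the median of all. Their coding sequences were not longer, with a median of 1141.5 bases against 1341 bases, and the encoded proteins had 380.5 residues against 447 residues. The transcripts were poorer in G and C, with a median GC content of 43.5% against 49.5%, and so were the 3′UTRs, at 36.2% against 42.5%. Genes spanned 41.6 kb against 30.2 kb, with 8 exons against 9 in the representative transcript. Over 20% of the 50-base stretches of LDHB, ZFP91, FAM3C and LSM12 recur in other genes, and over 20% of the exon bases of TYMS, LDHB, ZFP91, VGLL4, GINS4 and CDCA7L overlap other genes, so the levels of these 8 members are uncertain. AC004556.1, the member with the lowest difference, had no transcript sequence among those used, so its stretches could not be compared with other genes.

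**Figure D4:**
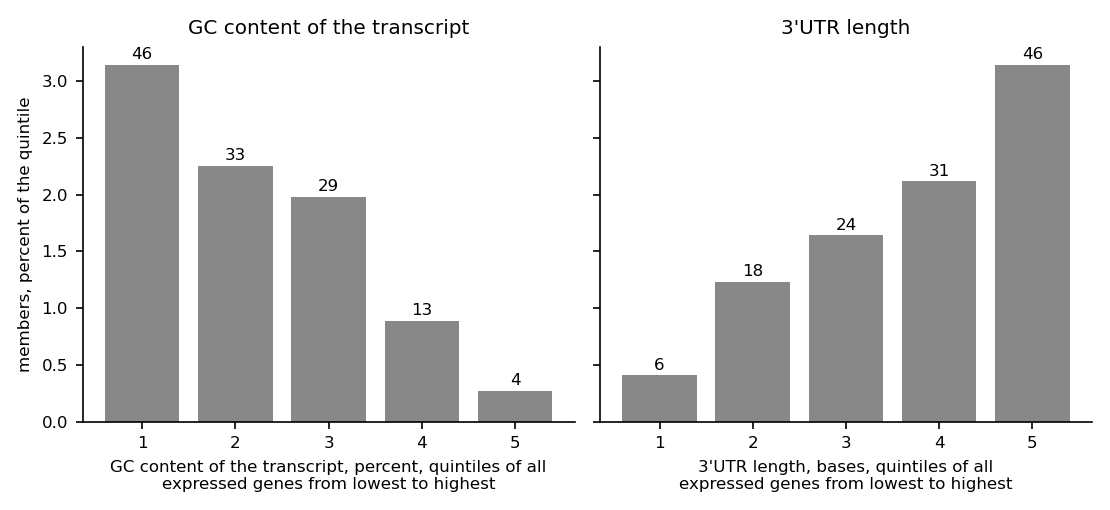
The share of genes that are members (y axis, percent) in quintiles of the expressed protein-coding genes by GC content of the transcript (left) and by 3′UTR length (right), with the number of members above each bar. The share falls from 3.14% to 0.273% with rising GC content and rises from 0.409% to 3.14% with 3′UTR length.

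These features also moved with the difference over all genes. In the quintile of genes with the lowest GC content the median difference was -0.061, and in the highest quintile it was 0.052. The trend was seen in pair 1 (from -0.083 to 0.019) and pair 3 (from -0.11 to 0.16), but in pair 2 the outer quintiles were at -0.011 and -0.024. When each pair's difference was centred on genes of like GC content, 98 genes passed the cuts, of which 85 were among the 126 members. By 3′UTR length the medians ran from 0.024 in the shortest quintile to -0.046 in the longest. The part of GC content and length in the members' differences was not tested.

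An AU-rich heptamer, TATTTAT, occurred on the sense strand of the 3′UTR in 64 members (50.8%) against 31.7% of all expressed genes. Classes of 3′UTR length over all genes would give 52.16 members. These classes do not adjust for GC content, which was lower in the 3′UTRs of the members (36.2% against 42.5%). A hydrophobic stretch of 19 residues with a mean Kyte-Doolittle hydropathy of at least 1.9 was encoded by 40 members (31.7%), against 19.3% of all, and it began in the first 40 residues in 16 members (12.7% against 7.503%), the place of signal peptides. Members lay on most chromosomes, with 15 on chromosome 2 (11.9%, against 7.43% of expressed genes), 11 on chromosome 12 (8.73% against 5.36%) and 10 on chromosome 8 (7.94% against 3.74%), but 7 on chromosome 1 (5.56% against 10.8%).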

How the data were processed

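RNA of SK-N-BE(2) cells was sequenced in 3 NC and 3 siPrp19 samples, and per the submitters' processing notes HISAT2 2.0.5 and featureCounts 1.5.0-p3 were used on hg38. The authors deposited FPKM values per gene, with no read counts, and their methods name DESeq2 for their own tests. Of 58302 genes in the deposited tables, 58039 were found in GENCODE 29. The values gave whole reads in all 6 samples, within 0.05 of a read, for 95.9% of genes above 0, and these recovered reads gave the depths and the limma-voom alternative. Precision is given as the SD over 3 pairs.

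Differences were taken as log2(FPKM + 0.1) of siPrp19 minus NC between samples with the same replicate number; a fold change on this scale understates the change of low genes. Deviations from the group means of samples with the same number correlated with r = 0.82, 0.93 and 0.94 over 7317 genes, and the numbers come from the labels. Members, roles and gene lists were chosen with earlier results of these data known. The members named are the 20 with the lowest difference, the 10 with the highest FPKM, up to 4 in gene families (by symbol) with at least 2 members, and those nearest the cut on the mean; others were chosen after their values were seen. Roles were assigned from known functions. Values of some named genes are not reported here.

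The background of the contrast was fitted with limma 3.58.1 in R 4.3.3 (trended eBayes) on genes averaging 1 FPKM or more, with p-values adjusted by Benjamini-Hochberg, after a test on simulated data. Alternatives changed the pseudocount, the level floor, the scaling, the pairing, the cuts, the tool and the samples, and a GC correction (running median over 501 genes) was added after seeing the data. Whether strand was used in counting is not given in the sources used here. One member had no transcript sequence among those used, and promoter sequences come from RefSeq.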

Additional observations from a re-analysis of the deposited data

How the results depend on the processing

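The number of members depended on the cuts and on the pairs used. It was 126 as reported, 69 with a floor of 10 FPKM, 218 with a floor of 1 FPKM, 57 when the groups had not to overlap in place of the paired cuts (48 of them shared with the 126), and 26 with a cut of -0.5 on the mean. Leaving out both samples of 1 replicate number gave 115 without replicate 1, 206 without replicate 2 and 262 without replicate 3, with 105, 117 and 117 of the 126 among them. Pseudocount 1 gave 101, TPM scaling 130, quantile normalization 115 and a cut of 0 in each pair 181. The median difference of the same 126 members stayed between -0.41 and -0.36 under the alternatives run for it. Their choice on these differences left this median little room to move, so nothing is read from it. All 282 values of the 47 named genes under those alternatives were below 0, as the choice of members makes likely.

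For genes called by limma, 0 as reported, the replicate block gave 0 on the same genes, 135 together with a floor of 5 FPKM, and 1127 with voom on recovered reads. Pseudocount 1, no filter, quantile normalization, voom without the block, and each leave-one-out fit gave 0, with 138 to 320 genes at an unadjusted p under 0.05 in the latter. The share of genes past the cut in a pair left out of the choice was 93.5% for pair 1 and 67.9% for pair 2 with pseudocount 1, and 104 of 208 genes for pair 3.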
